A study of Gallus gallus and Columba livia with 18 samples.

Results

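The retinas of 2 bird species were followed from embryonic day 5 to day 8, and the question here is which genes took a different course in pigeon (Columba livia) and in chicken (Gallus gallus) over that interval. An earlier stage, E3-E3.5 (here E3), is given as context. For each gene the change from the stage E5-E5.5 (here E5) to the stage E8-E8.5 (here E8) was taken as a difference of log2(FPKM + 1), and the chicken change was subtracted from the pigeon change. FPKM counts sequenced fragments relative to transcript length and to the mapped total. A difference of 1 therefore means that, on this scale, the step from E5 to E8 went about 1 doubling further up in pigeon than in chicken. Genes were taken when their upper-case name stood once in the chicken table and once in the pigeon table, when the pigeon gene model had at least 300 bases and when FPKM reached 1 at a stage in each species. Of 6842 names that both tables list once, 5190 met these conditions, and 5146 of them, 75.2% of the shared names, were above 0 at E5 and at E8 in both species and were compared.

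The labels name no strain, genotype, sex or treatment, and the groups were chicken E5, chicken E8, pigeon E5 and pigeon E8, with 3 libraries each and 12 in all. Eggs of both birds were incubated at 37 °C, and each collection for a stranded messenger RNA library held between 1 and 6 whole retinas. The deposited tables hold 1 pooled FPKM per gene, species and stage, so there is no spread between replicates, no SD and no p-value for any value given here, and a difference past 1 is a size and not a test. Because each species has its own table and scaling, levels are set side by side and only the changes within a species are compared.

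The chick is a precocial bird that hatches with working eyes, while the pigeon is altricial and hatches with its eyes closed and its retina immature. In both, the neural retina forms from dividing progenitors that leave the cell cycle in a conserved order, in which ganglion cells, cones, horizontal cells and amacrine cells come early and bipolar cells and Müller glia late. ATOH7 is the proneural transcription factor that opens the ganglion cell fate, and Notch signalling holds progenitors back from it. The retina is wrapped by the pigment epithelium and lies next to the lens and the periocular mesenchyme, so that a dissected retina can carry RNA of these tissues. A table value for whole tissue cannot tell fewer cells of a type from less RNA in each cell.

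Of the fixed markers of the eye field, SIX6, a homeobox factor of retinal progenitors, was the member compared, at 82.6 and 104 FPKM in chicken and at 449 and 584 in pigeon at E5 and E8. PAX6 and LHX2 were not compared and had chicken values of 252 and 48.2 FPKM at E8, and SIX3, also not compared, had a pigeon value of 352. Both tissues thus carried retinal markers at both stages. Markers of neighbouring tissues were also present at E5, with TYR, the melanin enzyme tyrosinase, at 45.7 in chicken and 68.5 in pigeon, and LUM, a matrix protein of cornea and connective tissue, at 44.3 and 79.7. At E8 the same genes stood at 1.74 and 1.02, and at 0.106 and 1.18.

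Over the 5146 genes, the difference was at least 1 in 252 genes (4.9%), here called higher in pigeon, and at most −1 in 164 genes (3.19%), here called lower in pigeon. A difference of 2 in size was reached by 36 genes above (0.7%) and by 18 below (0.35%). The median difference over all compared genes was 0.05, with the middle 50% of the genes between −0.24 and 0.34. Together the 416 genes past 1 in either direction were 8.08% of those compared, and this is the background against which the gene groups below are read. Genes with low values made up most of them. Split into 4 equal groups by mean level, the lowest group held 159 of the 252 and 109 of the 164, and 20.8% of its genes lay past 1, against 1.79% of the highest group.

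The 2 species moved mostly the same way, with a wider spread of steps in pigeon. The changes of the 5146 genes had a Pearson correlation of 0.65 across genes and a Spearman correlation of 0.56, and 70.3% of the genes had the same sign in both birds, as a description of genes that are not independent of each other. The SD of the changes over genes was 0.78 in pigeon and 0.55 in chicken, a ratio of 1.43. This ratio lay between 1.21 and 1.63 under every alternative but the one that sets the spreads equal. That alternative takes the median absolute deviation as the spread, which was 0.36 in pigeon and 0.22 in chicken before scaling. A change of at least 1 upward was seen in 340 genes (6.61%) in pigeon and in 149 (2.9%) in chicken, and downward in 296 (5.75%) and 191 (3.71%). In 107 genes the change was upward by at least 1 in both species, and in 87 of these the pigeon step was the larger, with median changes of 2.13 in pigeon and 1.53 in chicken. In 114 genes it was downward by at least 1 in both, and the pigeon step was the larger in 76, with medians of −1.86 and −1.55. Downward, this share was lower under some alternatives. It was 86 of 163 with a pseudocount of 0.1, 62 of 113 with median-ratio scaling and 53 of 105 with quantile normalisation. Upward it was 113 of 143, 86 of 115 and 96 of 133 in the same order. Chicken FPKM values ran lower, with a median of 16.6 at E5 against 34.98 in pigeon, and the added 1 shrinks changes more at lower values. The ratio of the SDs was 1.27 with the levels of the columns brought together by median-ratio scaling. With FPKM of at least 5 it was 1.42, and with pseudocounts of 0.1 and 5 it was 1.27 and 1.63. The part of the added 1 in this ratio was not tested.

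**Figure D1:**
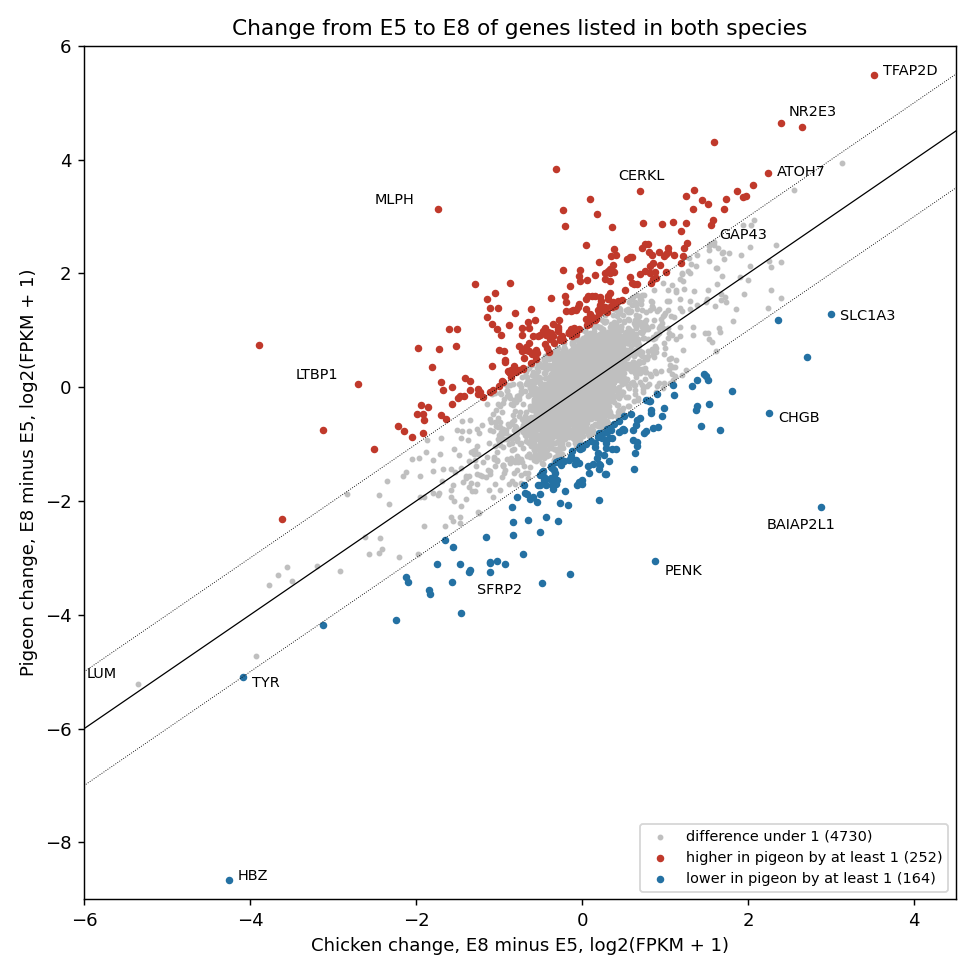
Each point is 1 of 5146 genes, with its change from E5 to E8 in chicken on the horizontal axis and in pigeon on the vertical axis, both as differences of log2(FPKM + 1). The solid line marks equal change and the dotted lines a difference of 1. The 252 red genes lie above the upper dotted line and the 164 blue genes below the lower one, and most points follow the solid line.

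The plot of the changes of all genes shows that the genes past 1 came from several patterns. Of the 252 genes higher in pigeon, 115 were up by at least 1 in pigeon and under 1 in size in chicken, 30 were up by at least 1 in both, and 37 were down by at least 1 in chicken and under 1 in size in pigeon. In a further 11 the species went opposite ways by at least 1 (12 of all genes, 0.233%, did so in either sense), 2 were down by at least 1 in both, and 57 were under 1 in size in both species. Of the 164 genes lower in pigeon, 85 were down by at least 1 in pigeon and under 1 in size in chicken, 21 were down by at least 1 in both, 15 were up by at least 1 in chicken and under 1 in size in pigeon, and 40 were under 1 in size in both. The rest were 2 genes up by at least 1 in both and 1 gene, BAIAP2L1, that went opposite ways.

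Ganglion cell genes stood out by their count, since 8 of the 10 compared members of a list of 42 were higher in pigeon and none was lower, against 4.9% of all genes, and their median difference was 1.33. All 10 differences were positive, between 0.22 and 1.79, and the median change was 2.29 in pigeon and 1.27 in chicken. The list had been written with earlier results of these data known, and its count and median describe these members only. The changes of each species were also divided by their spread over all genes, taken as the median absolute deviation. By this measure 1 of the 10, IRX2, stayed past 1, and ATOH7 took nearly the same step in both birds. The SD of the divided changes was then smaller in pigeon than in chicken, at a ratio of 0.86. A division by the SD was not run. Over the same interval 7 of 11 pigment epithelium genes, described below, were lower in pigeon, and their part in these values was not tested.

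ATOH7 was at 117 FPKM at E5 and 555 at E8 in chicken, and at 133 and 1827 in pigeon. The step was 4.75-fold in chicken and 13.8-fold in pigeon, and the log2 changes of 2.24 and 3.77 gave a difference of 1.54. Its chicken locus (XLOC_019146) runs on chromosome 6 from 11588940 to 11643284 and its pigeon model (Cli_R013085) on scaffold645 from 414244 to 414696, with the genome builds not stated in the labels or tables. The pigeon model has 453 bases, and the chicken locus is far longer than that. Whether the chicken values are of ATOH7 alone was not tested.

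ISL1, a LIM homeobox factor of ganglion and other retinal neurons, was at 2.12 and 9.37 FPKM in chicken and at 2.42 and 32.7 in pigeon. Both birds were higher at E8, and the difference of the changes was 1.57. GAP43, a protein of growing axon tips, went from 22.4 to 67.6 in chicken and from 46.5 to 343 in pigeon, a difference of 1.31. RTN1, a reticulon of the endoplasmic reticulum of neurons, stood at 24.0 and 70.4 in chicken and at 13.5 and 135 in pigeon, a difference of 1.72. In all 4 of these genes both birds were higher at E8, with the larger step in pigeon.

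Other members of the list were transcription factors at lower levels. DLX1, a homeobox factor, was at 1.27 and 3.64 FPKM in chicken and at 5.83 and 34.6 in pigeon, a difference of 1.35. EBF1, a helix-loop-helix factor of differentiating neurons, was at 2.03 and 4.35 in chicken and at 5.91 and 26.8 in pigeon, a difference of 1.19. Its relative EBF3 had a difference of 1.00, just inside the limit, or 0.59 with median-ratio scaling, while EBF2 had 0.33. IRX2, an Iroquois homeobox factor, went from 6.54 to 3.82 in chicken and from 1.05 to 3.52 in pigeon, and its difference of 1.79 thus comes from opposite directions. SOX11, at 0.22, was little different between the birds.

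Among 7 compared proneural and neurogenic factors, 2 were higher in pigeon and 1 was lower, with a median of 0.86. The higher ones were ATOH7 and ST18. ST18, a zinc finger factor of the MYT1 family, was at 1.84 and 9.32 FPKM in chicken and at 2.304 and 35.2 in pigeon, a difference of 1.59. MYT1 itself, at 0.86, and HES6, a helix-loop-helix factor that promotes differentiation, at 0.91, were under 1, although HES6 reached 97.7 in chicken and 422 in pigeon at E8. EYA2, a transcriptional cofactor, went the other way, from 8.71 to 14.1 in chicken and from 5.65 to 1.98 in pigeon, a difference of −1.80.

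**Figure D2:**
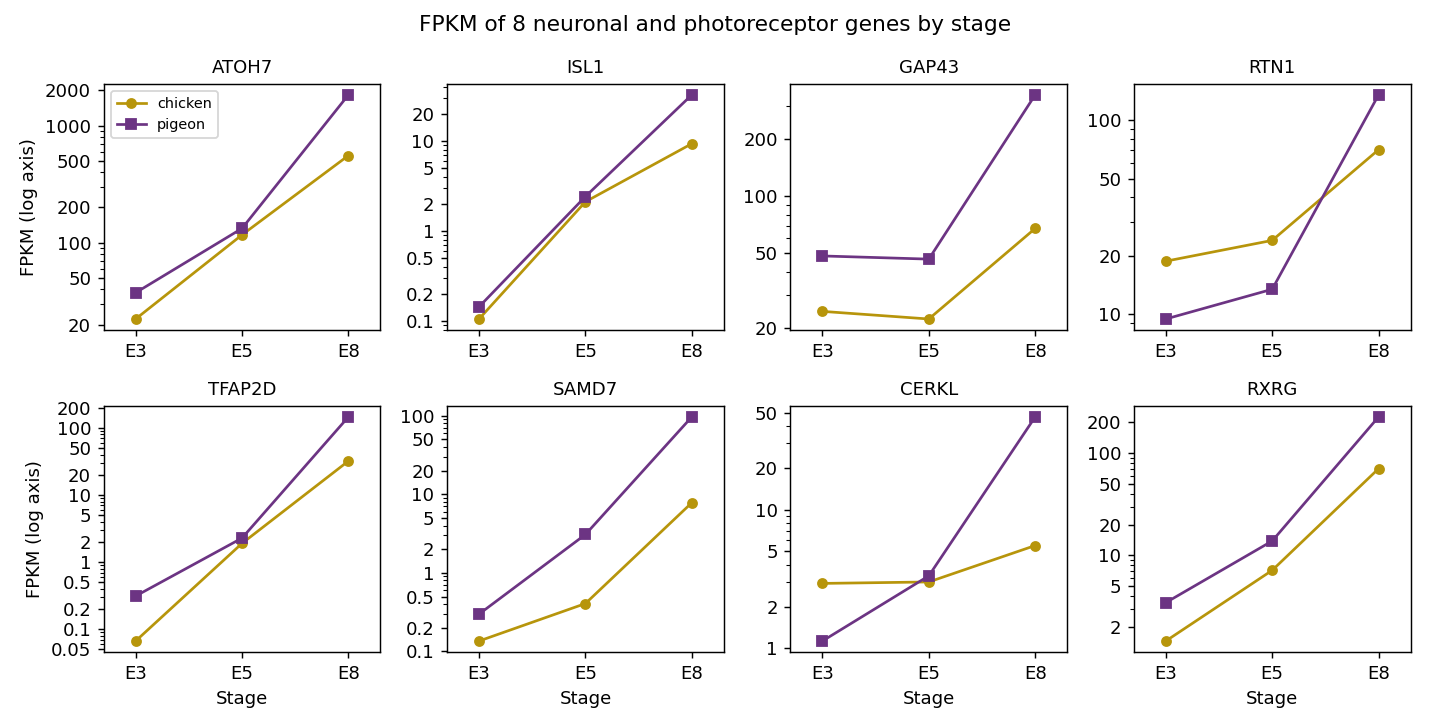
FPKM of 8 neuronal and photoreceptor genes at the 3 stages on a log axis, with 1 pooled value per species and stage and no error bars. The line from E5 to E8 is steeper in pigeon in all 8 panels, as for ATOH7, from 133 to 1827 FPKM in pigeon and from 117 to 555 in chicken. The tables of the birds have separate scaling, so slopes and not heights are to be compared.

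Several photoreceptor genes had higher values at E8 in both birds, with the larger step in pigeon. Of 4 compared cone and rod transcription factors 1 was higher in pigeon, and of 7 phototransduction and photoreceptor proteins 2 were, with medians of 0.81 and 0.52 and none lower. NR2E3, a nuclear receptor of photoreceptors, was at 0.306 and 5.88 FPKM in chicken and at 0.294 and 31.3 in pigeon, a difference of 2.24. SAMD7, a Polycomb-associated protein of photoreceptors, was at 0.407 and 7.81 in chicken and at 3.08 and 96.6 in pigeon, a difference of 1.93. With a pseudocount of 0.1 the difference of SAMD7 was under 1. RBP3, the retinoid-binding protein of the space around photoreceptors, was at 0.302 and 4.44 in chicken and at 0.361 and 14.9 in pigeon, a difference of 1.49 that became 0.76 with median-ratio scaling. All 3 genes were near the floor at E5 in both birds, apart from SAMD7 in pigeon.

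RXRG, a nuclear receptor of cones, and RORB, an orphan receptor needed for photoreceptors, were higher at E8 in both species with differences under 1, at 0.80 and 0.82. Both differences turned negative when the changes of each species were divided by their spread. RXRG went from 7.14 to 70.4 FPKM in chicken and from 13.8 to 226 in pigeon. RORB went from 20.3 to 86.3 and from 21.8 to 163. CERKL, a ceramide kinase-like gene known from retinal degeneration in human, was among the 15 highest genes with a difference of 2.76, at 3.02 and 5.52 in chicken and at 3.34 and 46.6 in pigeon. Primary cilium genes, many of which serve the photoreceptor outer segment, had a median of 0.21, with 1 of 37 members higher in pigeon. At the lower end BBS4, of the Bardet-Biedl complex, stood just outside the limit at −0.99.

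Amacrine and horizontal cell genes split. Of 7 compared members 2 were higher in pigeon and 1 was lower, with a median of 0.76. TFAP2D, a transcription factor of the AP-2 family, had the highest change of the interval in both birds, 3.51 in chicken and 5.49 in pigeon, at 1.90 and 32.2 FPKM and at 2.28 and 146. Its difference of 1.97 turned to −0.29 when the changes of each species were divided by their spread. CALB2, the calcium-binding protein calretinin, had a difference of 1.22, at 18.0 and 10.7 in chicken and at 18.1 and 26.4 in pigeon. PROX1, a homeobox factor of horizontal cells, had 0.76 and was higher at E8 in both.

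PENK, which encodes the opioid peptide precursor proenkephalin, had the third lowest difference among genes with at least 5 FPKM in both birds. It was at 5.74 and 11.4 FPKM in chicken and at 18.9 and 1.41 in pigeon, changes of 0.88 and −3.05 and a difference of −3.93. At E3 the values were 2.42 in chicken and 2.65 in pigeon, so that the pigeon value was high at E5 alone. Of 4 bipolar cell genes compared, ISL1 and VSTM2B, an immunoglobulin-domain membrane protein, were higher in pigeon, the latter at 6.76 and 8.89 in chicken and at 7.92 and 43.4 in pigeon, with a median of 1.05 for the list.

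Genes of synapses and neuronal excitability showed no common shift. Of 15 synaptic vesicle and SNARE genes 3 were higher in pigeon and none was lower (median 0.29), of 9 neurotransmitter receptors 2 were higher and 1 was lower (median 0.32), and of 13 ion channels 1 was higher and 2 were lower (median −0.17). SV2B, a vesicle membrane protein, was at 4.63 and 10.6 FPKM in chicken and at 1.46 and 12.4 in pigeon, a difference of 1.40. SNAP25, a core SNARE protein, at 0.44, and SYT4, a synaptotagmin, at −0.03, were higher at E8 in both birds by similar amounts.

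Among receptors, GABRA4, a GABA-A receptor subunit, had a difference of 2.04 at low levels, 1.30 and 0.134 FPKM in chicken and 0.340 and 1.72 in pigeon, and CHRNA7, a nicotinic subunit, had −1.246. KCNIP2, a subunit that modulates potassium channels, was at 5.34 and 3.15 in chicken and at 4.97 and 14.5 in pigeon, a difference of 1.99. KCNH5, a potassium channel, had −1.49. Solute carriers of neurons and glia had 3 of 11 members higher in pigeon and 1 lower (median 0.37), with SLC1A7, a glutamate transporter of retinal neurons, at 2.38. Its FPKM was 3.71 and 1.13 in chicken and 0.303 and 2.07 in pigeon.

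Axon guidance and adhesion genes went both ways, with 4 of 23 higher in pigeon, 4 lower and a median of 0.02. NCAM2, a neural adhesion molecule, stood at 0.771 and 1.31 FPKM in chicken and at 0.369 and 6.35 in pigeon, a difference of 2.04, and CNTNAP2, a relative of the neurexins, had 1.75. UNC5D, a netrin receptor, and PLXNC1, a semaphorin receptor, had −1.61 and −1.59. PLXNC1 was at 3.03 and 3.26 in chicken and at 28.8 and 9.48 in pigeon. None of 9 microtubule and axon transport genes lay past 1, with a median of 0.46 and MAP1B, a microtubule-associated protein of growing axons, the highest at 0.71.

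**Figure D3:**
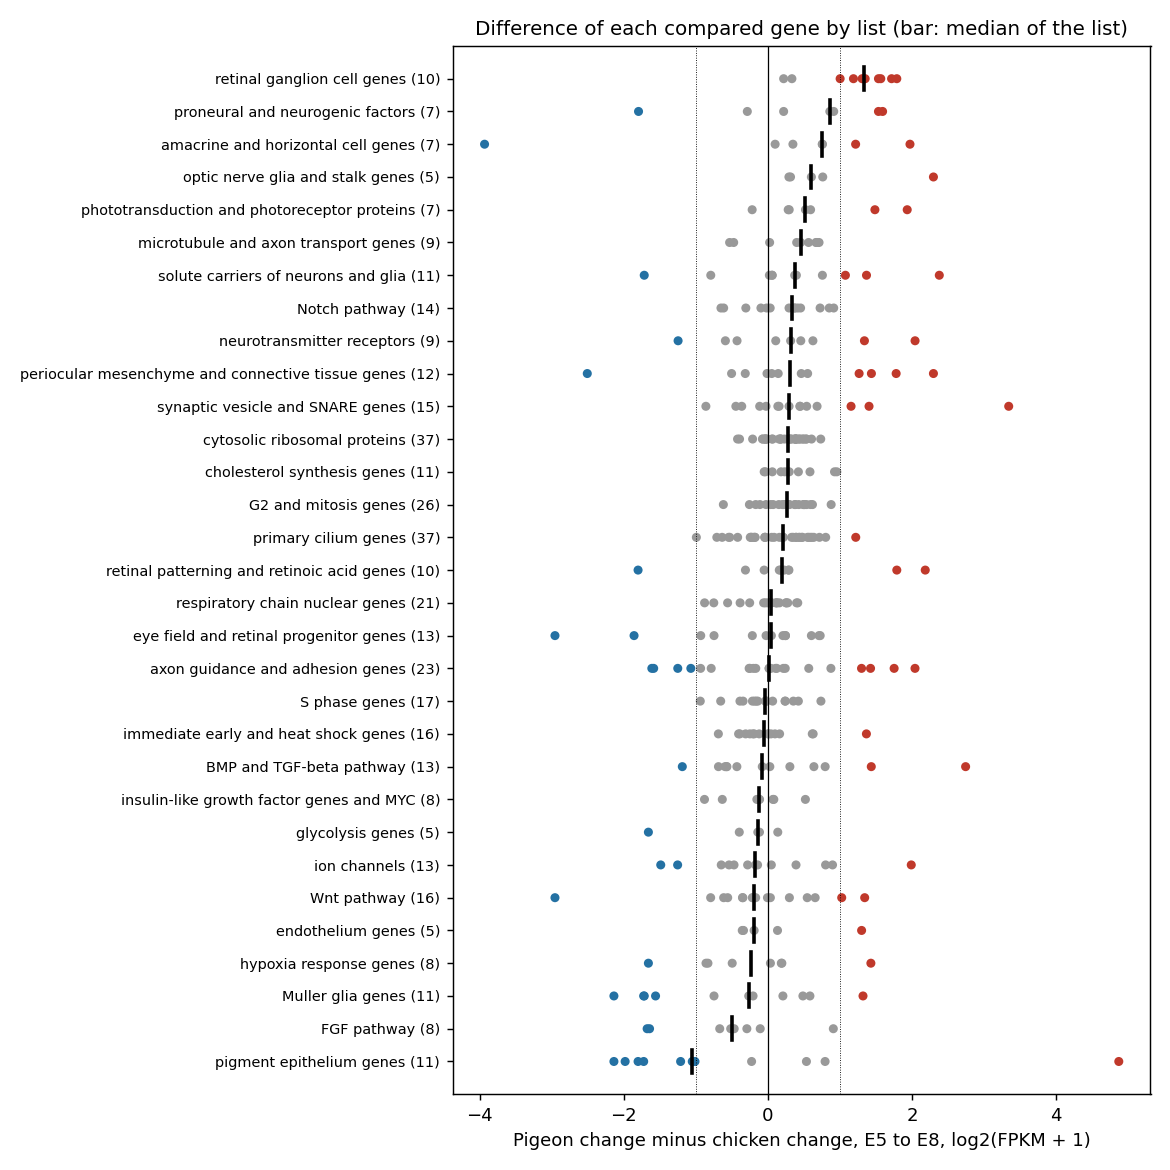
Each dot is a compared gene of a list, placed by its pigeon change minus its chicken change on the log2(FPKM + 1) scale, for lists with at least 5 compared genes (number in brackets). Red dots are at least 1, blue dots at most −1, and the black bar is the median of the list, which runs from −1.05 in pigment epithelium genes to 1.33 in ganglion cell genes.

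At the lower end stood BAIAP2L1, an adaptor protein that links membranes to actin, with the lowest difference of all compared genes, −4.98. It was at 2.28 FPKM at E5 and 23.1 at E8 in chicken, and at 35.3 and 7.45 in pigeon, so that the birds went opposite ways by 2.88 and −2.10. The chicken locus (XLOC_006031) lies on chromosome 14 from 1149446 to 1184172, and the pigeon model (Cli_R001019) on scaffold1084 from 392791 to 414122. CHGB, a granin of secretory vesicles, was at 10.8 and 55.2 in chicken and at 21.2 and 15.3 in pigeon, a difference of −2.70. LPPR4, a phosphatase-related protein of neurons, had −2.18 and was at 1.54 and 15.6 in chicken and at 10.2 and 15.3 in pigeon.

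SFRP2 and PID1 had much lower values at E8 than at E5 in pigeon and changes under 1 in size in chicken. SFRP2, a secreted antagonist of Wnt ligands, was at 32.0 and 22.5 FPKM in chicken and at 59.3 and 4.55 in pigeon, a difference of −2.96. PID1, a phosphotyrosine-binding adaptor, was at 5.67 and 5.02 in chicken and at 50.7 and 4.34 in pigeon, a difference of −3.13. Further among the 15 lowest were LINGO3 (−2.11), EMILIN3 (−2.05), TMEM119 (−2.03), SDC1 (−2.03) and WFDC1 (−1.96). MYL4, a myosin light chain that was the 1 member of the muscle list compared, had −2.42, at 43.6 and 140 in chicken and at 1286 and 759 in pigeon. The fixed muscle marker MYOD1 stood at 0.227 FPKM or less at every stage in both birds, with pigeon listed at 0 at E3 and E5. ACTC1, also a fixed muscle marker, was at 0.344 and 1.20 in chicken at E5 and E8. TNNC1, a muscle gene left out for a 0 in pigeon at E8, was at 11.6 and 6.10 in chicken.

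**Figure D4:**
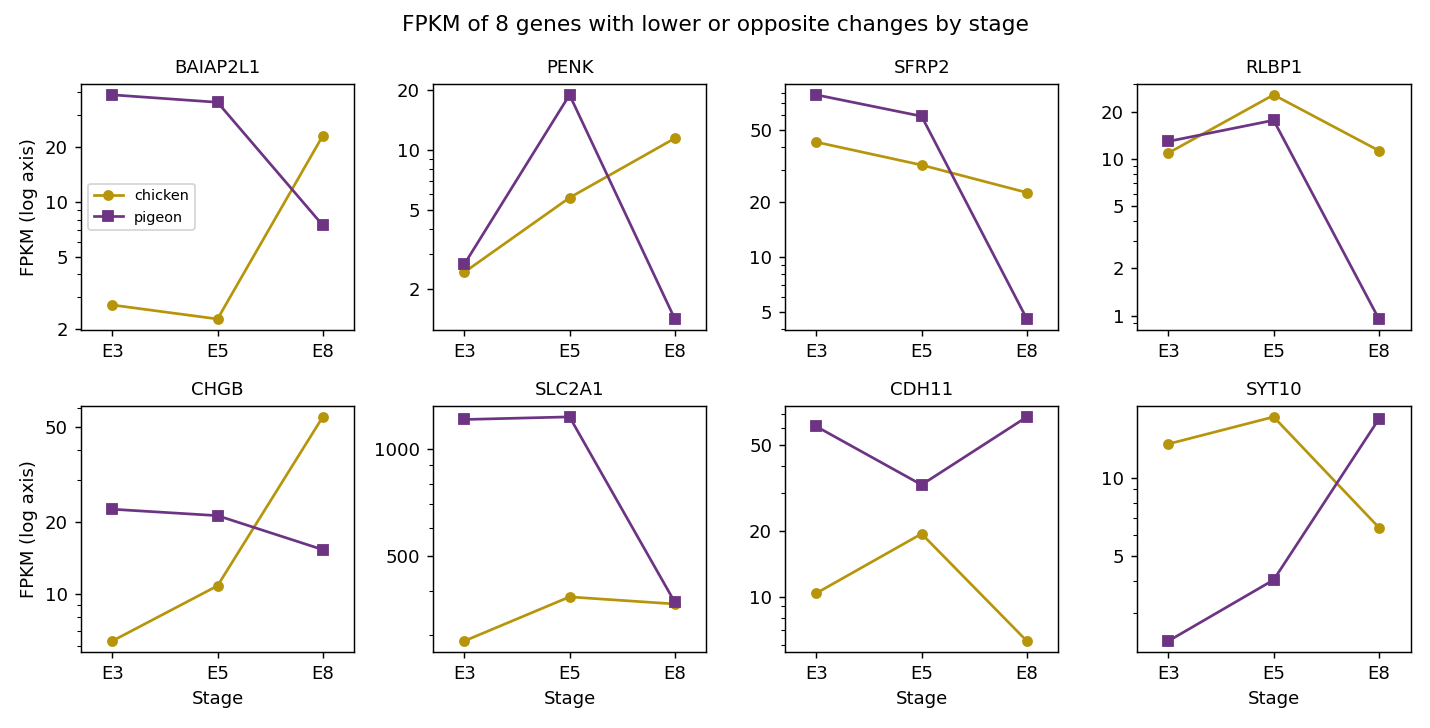
FPKM at the 3 stages on a log axis for 8 genes that were lower in pigeon or went opposite ways, with 1 pooled value per species and stage and no error bars. BAIAP2L1 crosses between the species, from 2.28 to 23.1 in chicken and from 35.3 to 7.45 in pigeon between E5 and E8.

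Müller glia genes included 4 members lower in pigeon and 1 higher among 11 compared, with a median of −0.27. Of the 4, RLBP1 and RGR are also on the pigment epithelium list and CD44 (−1.56) is also on the leukocyte list. Over all alternatives the members lower in pigeon numbered between 1 and 5. SLC1A3, the glial glutamate transporter, was at 2.50 and 27.0 FPKM in chicken and at 37.0 and 91.5 in pigeon, a difference of −1.72, and both birds were higher at E8. RLBP1, a retinaldehyde-binding protein of Müller glia and pigment epithelium, was at 25.5 and 11.3 in chicken and at 17.6 and 0.953 in pigeon, a difference of −2.14. RGR, an opsin of the same 2 cell types, had −1.72, at 3.24 and 0.178 in chicken and at 42.2 and 2.63 in pigeon. The added 1 weighs on its low chicken values. As a plain ratio of E8 to E5 its fall was not larger in pigeon. CRYM, mu-crystallin, which binds thyroid hormone, was at 25.5 and 45.6 in chicken and at 107 and 474 in pigeon, a difference of 1.32. SOX2 (0.21), CA2, the carbonic anhydrase of Müller cells (0.49), and GLUL, the glutamine synthetase (−0.27), were under 1 in size.

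Most pigment epithelium genes were lower at E8, by at least 1 in 9 of the 11 compared members in chicken and in 8 in pigeon. Of these 11 members 7 had a difference of at most −1 and 1 of at least 1, against 3.19% and 4.9% of all genes, with a median of −1.05. RGR, 1 of the 7, was under 1 in size with a pseudocount of 0.1. The summed FPKM of these 11 went from 218 to 69.9 in chicken and from 585 to 359 in pigeon, where TRPM1, a cation channel also of bipolar cells, made up 255 and 189. SLC24A5, at 79.4 and 103, and MLPH, at 5.28 and 54.0, also held up the pigeon sum at E8. The fall of the sum was thus not larger in pigeon, which says little of the other members. SERPINF1, a secreted neurotrophic factor of the epithelium, was at 3.36 and 1.03 in chicken and at 23.4 and 1.87 in pigeon, a difference of −1.98. STRA6, the receptor that takes up retinol, was at 30.4 and 7.80 in chicken and at 47.7 and 2.92 in pigeon, a difference of −1.80. With median-ratio scaling 4 members stayed past −1, since TYR (−0.60), GPR143 (−0.31) and OCA2 (−0.58), all melanosome proteins near the floor at E8, no longer did. With the changes of each species divided by their spread 1 member stayed past −1, and these 3 genes changed sign, to 1.36 for TYR, 0.82 for GPR143 and 0.15 for OCA2. MLANA was left out because it is listed at 0 in pigeon at E8, after 12.01 FPKM at E5, and RPE65 was at 0.443 FPKM or less throughout.

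MLPH, melanophilin, an adaptor of melanosome transport, went against its list and had the highest difference of all compared genes, 4.87. It was at 2.72 and 0.112 FPKM in chicken and at 5.28 and 54.0 in pigeon, changes of −1.74 and 3.13. The pigeon value at E8 held 723 smallest steps, which are the value divided by the lowest nonzero value among models of like length, both multiplied by length, so that it lies far above the smallest value seen. The chicken locus (XLOC_019868) runs on chromosome 7 from 4759124 to 4778154 and the pigeon model (Cli_R013360) on scaffold68 from 5331905 to 5357008. SLC24A5 (0.79) and TRPM1 (0.54), also of pigment cells, were positive but under 1.

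Progenitor genes were similar in both birds apart from a pair that was lower in pigeon. Of 13 compared eye field and progenitor genes none was higher and 2 were lower, with a median of 0.05. These were SFRP2 and PRTG, protogenin, a receptor of early neural tissue, which went from 7.10 to 0.712 FPKM in chicken and from 23.0 to 0.403 in pigeon, a difference of −1.86. CCND1, the cyclin of retinal progenitors, was at 81.1 and 128 in chicken and at 286 and 740 in pigeon, a difference of 0.71. None of 14 Notch pathway genes lay past 1 (median 0.33), with HES6 the highest and MIB2, a ubiquitin ligase that acts on Notch ligands, the lowest at −0.65. HEY1, a target of Notch, had 0.85.

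Cell division genes differed little between the birds. No difference lay past 1 among 17 compared genes of S phase or 26 of G2 and mitosis, with medians of −0.04 and 0.26. Of the mitosis genes 21 of 26 were positive, against 55.4% of all compared genes, with ANLN, the cytokinesis protein anillin, at 0.88 and NUSAP1, a spindle protein, at 0.62. Among S phase genes 6 of 17 were positive, and RRM1, a subunit of the enzyme that makes deoxynucleotides, was the lowest at −0.94, at 190.5 and 237 FPKM in chicken and at 299 and 194 in pigeon. Of 2 cell cycle exit genes compared, CDKN2C, an inhibitor of cyclin D kinases, was at 0.446 and 2.44 in chicken and at 0.391 and 9.28 in pigeon, a difference of 1.64. Its pigeon value at E5 held 1.54 smallest steps, so its start was near the limit of detection.

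Signalling genes held single members past 1 in either direction. In the list of retinal patterning and retinoic acid 2 of 10 were higher in pigeon and 1 was lower (median 0.20), namely HHIP, an antagonist of hedgehog ligands (2.19), IRX2, and STRA6. In the BMP and TGF-beta pathway 2 of 13 were higher and 1 was lower (median −0.08). LTBP1, which holds latent TGF-beta in the matrix, was at 16.1 and 1.64 FPKM in chicken and at 16.6 and 17.2 in pigeon, a difference of 2.75 that comes from the chicken side alone. BMP5, a BMP ligand, had 1.44 with 1.01 smallest steps in pigeon at E8, and FST, which binds activin, −1.19. Both signs depend on the added 1 at low levels. As plain ratios of E8 to E5, BMP5 was at 0.119 in chicken and 0.0869 in pigeon, and FST at 0.0362 and 0.122.

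FGF pathway genes leaned lower, with none of 8 higher in pigeon, 2 lower and 1 positive difference (median −0.49). ETV4, a transcription factor that answers FGF signalling, was at 21.6 and 13.4 FPKM in chicken and at 20.4 and 3.27 in pigeon, a difference of −1.68. FGF7, a ligand of mesenchyme, had −1.64, and FGF9, a ligand made in the retina, was the positive member at 0.91. In the Wnt pathway 2 of 16 were higher and 1 was lower (median −0.19), WNT7B (1.34), LGR5, a receptor of R-spondins (1.03), and SFRP2. None of 8 insulin-like growth factor genes and MYC lay past 1 (median −0.12), with MYC at −0.63 and IGFBP2 at −0.88.

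Of the genes of glucose use, SLC2A1, the main glucose transporter, was lower in pigeon. It was at 385 and 368 FPKM in chicken and at 1231 and 372 in pigeon, changes of −0.07 and −1.72 and a difference of −1.66. The other 4 glycolysis genes compared were under 1 in size, between −0.40 for PGK1 and 0.14 for SLC2A3 (median of the 5 genes −0.14). Hypoxia response genes, a list that also holds SLC2A1, had 1 of 8 higher and 1 lower (median −0.23), the former being EPAS1, a hypoxia-inducible factor, at 1.43. CA9, a carbonic anhydrase induced by hypoxia, had −0.86. None of 21 nuclear genes of the respiratory chain lay past 1 (median 0.05).

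The mesenchyme, erythroid and endothelium lists had lower summed levels at E8 in both birds, while the lens list did not. Of 12 mesenchyme and connective tissue genes 4 were higher in pigeon and 1 was lower (median 0.30), or 10 higher with the changes of each species divided by their spread, while 10 were down by at least 1 in chicken and 8 in pigeon, and their summed FPKM went from 148 to 22.7 and from 239 to 56.2. LUM (0.14), COL1A2 (0.05) and DCN (−0.01), matrix genes with much lower values at E8, differed little between the species on this scale. The added 1 weighs on LUM, at 0.106 FPKM in chicken and 1.18 in pigeon at E8. It also weighs on DCN, whose plain ratio of E8 to E5 was 0.0412 in chicken and 0.117 in pigeon. PDGFRA, a growth factor receptor of mesenchyme and glial precursors, was at 7.64 and 6.35 FPKM in chicken and at 5.26 and 25.2 in pigeon, a difference of 2.299, and FBLN1, a matrix protein, had −2.51. In the optic nerve glia and stalk list, PDGFRA was again the 1 of 5 members past 1 (median 0.60), and SOX10, a glial factor, had 0.76 with 0.0831 FPKM in chicken and 0.464 in pigeon at E8. The part of these tissues in the other results was not tested.

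HBZ, an embryonic globin chain, was at 234 and 11.3 FPKM in chicken and at 657 and 0.615 in pigeon, a difference of −4.41. The pigeon value at E8 held 1.08 smallest steps, and globin genes are close copies whose reads can be split between them, so the size is uncertain. Among 4 erythroid genes compared AQP1, a water channel, was higher in pigeon at 2.71 (list median −0.40), and the summed level went from 305 to 73.8 in chicken and from 773 to 101 in pigeon. Of 5 endothelium genes 1 was higher (median −0.19), SOX7 at 1.30, with 2.11 smallest steps in pigeon at E8. Of 4 lens genes 1 was higher (median 0.72), CRYAB, a small heat shock protein also made outside the lens, at 45.8 and 52.1 in chicken and at 0.622 and 12.5 in pigeon. Its pigeon value at E5 held 2.58 smallest steps. The defining lens gene CRYAA was left out because it is listed at 0 in pigeon at E8, and the summed lens list went from 58.0 to 63.7 in chicken and from 14.3 to 34.6 in pigeon. ASL1, a lens marker not compared, was at 625 and 2.33 in chicken. Of 3 leukocyte genes IRF8 (1.31) was higher and CD44 (−1.56) lower, with a median of 0.33.

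Further genes among the 15 highest fell into no list. C9ORF4 was at 21.0 and 22.5 FPKM in chicken and at 4.36 and 52.0 in pigeon, a difference of 3.22. CALML4, a calmodulin-like protein, had 3.04, NTNG1, a netrin-like adhesion protein, 2.70, LECT1, the cartilage protein chondromodulin, 2.67, LRRC31 2.46 and VSTM2L 2.46. LECT1 was at 141 and 35.04 in chicken and at 42.5 and 69.2 in pigeon. Without regard to level, the 3 highest differences were MLPH, IL1RL1, an interleukin receptor, at 4.64 and CA8, a carbonic anhydrase-related protein, at 4.16, the last 2 chosen after their values were seen. CA8 was at 4.24 and 3.20 in chicken and at 9.33 and 147 in pigeon, while IL1RL1 was at 18.2 and 0.296 in chicken and at 1.05 and 2.44 in pigeon.

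Around the limit of 1 the values ran on without a gap. Among genes with at least 5 FPKM in both birds, GPR137C (1.01) and EBF3 (1.00) lay just inside, and CHST12 (1.00) and FNIP1 (1.00) just outside before rounding. On the lower side TMEM63C and DUS3L lay just inside, and C20ORF26 and BBS4 just outside, with differences of −1.002, −1.001, −0.999 and −0.993 in that order. Of the called genes, 18 of 252 and 21 of 164 held fewer than 5 smallest steps at a compared pigeon stage, 7.14% and 12.8%, against 2.00% of all compared genes. Depth in chicken could not be measured this way, since that table gives no lengths.

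The 44 genes left out for a 0 at a compared stage were listed at 0 in pigeon in 37 cases and in chicken in 9, with 2 in both. In 28 of them the pigeon value at E8 was 0. Some stood for tissues that were lower at E8, such as PITX1, a homeobox factor of periocular tissue, at 16.6 and 0.0404 FPKM in chicken and at 9.54 and 0 in pigeon, and ESAM, an adhesion protein of endothelium, at 10.4 and 0 in pigeon. A 0 can also be a failed estimate. AQR, a splicing factor, was listed at 34.3 and 0 in chicken and at 97.5 and 91.6 in pigeon, and LBR, the lamin B receptor, chosen after its values were seen, at 214, 0 and 0 in chicken over the 3 stages and at 268 and 553 in pigeon at E5 and E8.

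Set beside E3, most genes past 1 from E5 to E8 were also past 1 in the same direction from E3 to E8. Of 248 genes higher in pigeon with a value above 0 at E3 in both birds, 174 had a difference of at least 1 from E3 to E8 as well, and of 164 lower genes 123 had one of at most −1. From E3 to E5 the difference went at least 1 the other way in 26 of the higher and 7 of the lower genes. It went at least 1 the same way in 7 of the higher and 12 of the lower genes. These comparisons share the E5 or the E8 values, so they are not separate evidence. The shared E8 values favour the same direction from E3 to E8, and the shared E5 values favour the other direction from E3 to E5. The shares over all compared genes were not computed, so these counts have no background to be read against. For ATOH7 the difference was −0.54 over the earlier interval and 1.54 over the later one, which left 0.998 over the whole course. ISL1 (0.08), GAP43 (0.07) and RTN1 (0.13) had differences near 0 from E3 to E5.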

How the data were processed

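Per the labels' protocols, Trizol was used for extraction and the TruSeq stranded mRNA kit took 1 µg of RNA. TopHat2, Bowtie2, Cufflinks and Cuffdiff are named in the submitters' processing notes, without versions. Builds and annotations: not given in the sources used here. Deposited values are FPKM, computed by the authors with 1 column per species and stage, per the file headers, in 24708 chicken and 16652 pigeon rows. Of names listed once there were 16802 in chicken and 10240 in pigeon, and of the 6842 shared ones 252 were dropped for a pigeon model under 300 bases and 1400 for low FPKM. Of pigeon lengths 89.9% are multiples of 3 (coding length). Starts count from 0 in both tables and are printed here as starting at 1.

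The depth of the libraries is unknown. As a partial measure of it, a pigeon value times its length was divided by the lowest such nonzero product at that stage among models within 10% of the length, which gives its number of smallest steps. For models near the middle length, an FPKM of 4 to 6 held a median of 50.9 steps at E5 and 29.0 at E8.

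The planned limma test needs values per library and could not be used, so sizes are described with a pseudocount of 1 and a limit of 1, computed with Python 3.11.15, pandas 2.3.3 and numpy 2.4.6. The arithmetic of the calculation was checked on values with planted shifts and no noise. That check says nothing of how well differences are called in real data. The 38 gene lists, the rule for named genes and the members were chosen with earlier results of these data known, and some lists share genes. Named were the 15 highest and 15 lowest differences with at least 5 FPKM in both birds, up to 8 opposite genes in each sense, 2 genes on each side of both limits, list members (a few of which are not reported here), landmark genes and up to 4 genes at 0 in each species. Alternatives were 2 other pseudocounts, filters on level, zeros and length, 3 scalings, equal spreads, a limit of 2, other-tissue genes left out, and older symbols, with 1023 chicken and 437 pigeon names matched through a reference table of assembly GRCg7b. A minimum of 5 smallest steps was added after seeing the data.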

Additional observations from a re-analysis of the deposited data

Results flagged for a closer look

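In 6 genes with at least 5 FPKM in both birds the pooled values went opposite ways by at least 1 on the log2 scale between E5 and E8, and whether the species differ was not tested, since there is 1 value per species and stage. Opposite changes of this size were seen in 12 of 5146 genes (0.233%). BAIAP2L1 was up in chicken and down in pigeon, a difference of −4.98. The other 5 were down in chicken and up in pigeon. SYT10, a synaptotagmin, was at 17.1 and 6.42 FPKM in chicken and at 4.04 and 16.8 in pigeon, a difference of 3.11. SLC39A8, a zinc and manganese transporter, was at 28.3 and 8.67 in chicken and at 5.96 and 13.1 in pigeon, a difference of 2.62. CDH11, a cadherin, was at 19.5 and 6.23 in chicken and at 32.8 and 67.6 in pigeon, a difference of 2.52. DBNDD2 was at 54.4 and 24.8 in chicken and at 26.2 and 70.6 in pigeon, a difference of 2.50. CHODL, a lectin-like membrane protein, was at 5.26 and 2.10 in chicken and at 1.43 and 5.38 in pigeon, a difference of 2.40, and its pigeon value at E5 held 9.91 smallest steps.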

How the results depend on the processing

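No paired analysis was possible because the tables hold 1 pooled value per species and stage, and leaving out replicates was not run for the same reason. The counts of 252 genes higher and 164 lower in pigeon became 124 and 68 with a pseudocount of 5, and 36 and 18 with a limit of 2. Some alternatives also compared fewer genes. With FPKM of at least 5 the counts were 140 and 106 of 4366 genes, together 5.63% against 8.08% in the main run. With pigeon models of at least 1000 bases they were 160 and 103 of 3428 genes, together 7.67%. Under the other alternatives they stayed within 1.5 times, including 336 and 218 with a pseudocount of 0.1 and 234 and 143 with at least 5 smallest steps, an alternative chosen after seeing the data. With quantile normalisation 194 of the 252 and 146 of the 164 were kept, and the share of calls that were higher went from 60.6% to 52.7%. With equal spreads, set by the median absolute deviation, 161 and 91 were kept, and the ratio of the SDs became 0.86. The larger step was then in pigeon in 55 of 128 genes up and 31 of 123 genes down in both birds. Of the named genes past 1, 4 changed sign, to 1.36 for TYR, 0.82 for GPR143, 0.15 for OCA2 and −0.29 for TFAP2D. Genes under 1 are not in that count, and RXRG, RORB and HES6 among them also changed sign. The cause was not tested. Over all alternatives the ganglion cell genes higher in pigeon numbered between 0 and 9, with 5 under quantile normalisation and 0 at the limit of 2. The pigment epithelium genes lower in pigeon numbered between 0 and 7, with 1 under equal spreads, and the mesenchyme genes higher in pigeon between 0 and 10, with 10 under equal spreads; the counts of 0 in these lists come from leaving out the other-tissue genes themselves. Low levels limit the rest, since the added 1 shrinks changes of genes near the floor.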

Other observations

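Of 37 cytosolic ribosomal protein genes 27 had a positive difference, against 55.4% of all compared genes, and none lay past 1 (median 0.29, against 0.05 over all genes). Their summed FPKM was 60820 and 59725 in chicken and 165494 and 192295 in pigeon at E5 and E8. Of 11 cholesterol synthesis genes 9 were positive and none lay past 1 (median 0.28), with HSD17B7 the highest at 0.96, at 32.2 and 25.7 FPKM in chicken and at 99.6 and 156 in pigeon. Of 16 immediate early and heat shock genes 1 was past 1, KLF4 at 1.37 (median −0.06).

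A further 4 genes outside the lists were picked after their values were seen because they were higher in pigeon, so they say nothing of neuronal genes as a group, and other genes of neurons outside the lists, such as CHGB (−2.70) and LPPR4 (−2.18), were lower. GPM6A, a membrane glycoprotein of neurons, was at 34.7 and 116 FPKM in chicken and at 50.8 and 454 in pigeon, a difference of 1.43. PTPRZ1, a receptor phosphatase of glia and neurons, was at 13.1 and 37.3 in chicken and at 4.65 and 54.3 in pigeon, a difference of 1.85. MYT1L, a zinc finger factor of neurons, was at 0.256 and 1.45 in chicken and at 0.221 and 7.92 in pigeon, a difference of 1.91. EOMES, a T-box factor of some ganglion cells in mouse, was at 0.337 and 1.21 in chicken and at 0.157 and 5.30 in pigeon, a difference of 1.72, with 2.04 smallest steps in pigeon at E5.

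By chicken chromosome, among those with at least 100 compared genes, the share of genes past 1 in either direction ran from 3.28% of 122 genes on chromosome 12 to 10.9% of 156 on chromosome 9, and the Z chromosome had 5.56% of 252. The median difference ran from −0.13 on chromosome 17 to 0.22 on Z. It was positive on chromosomes 1 to 9, 13 and Z and negative on the others of this size. Chromosome 1 had 54 genes higher in pigeon and 20 lower, and chromosome 17 had 1 and 6. The cause was not tested.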
